A study of Mus musculus with 6 samples.

Results

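The genes described here encode the constant regions of mouse immunoglobulins: the 8 heavy chain genes *Ighm*, *Ighd*, *Ighg3*, *Ighg1*, *Ighg2b*, *Ighg2c*, *Ighe* and *Igha*, the κ light chain gene *Igkc*, and *Jchain*, whose product joins IgM and IgA into polymers. They are 10 of the 55421 genes counted in RNA sequencing of splenic monocytes. The set was chosen from the genotype comparison of these same libraries, in which *Igha* stood out, and was completed with the other isotypes. The levels of the 10 genes in that comparison are therefore given as a description, with a standard error. Where a p is named for them, it comes from the test of all genes, and nothing is read from it.

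The 6 libraries came from C57BL/6 mice used at 8 to 16 weeks of age, with 3 IL-4Rα+/+ and 3 IL-4Rα-/- libraries. IL-4Rα is the receptor chain for interleukin-4 (IL-4) and interleukin-13, and in the IL-4Rα-/- mice it was missing from the whole body, B cells included, so that a value cannot be assigned to the monocytes' own receptor. Neither genotype received a treatment according to the labels. Monocytes were enriched from spleen by negative selection, a procedure that removes the other leukocytes with antibodies and leaves monocytes untouched, and the enrichment is not a sort to purity.

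Immunoglobulin is made by B cells and, in far larger amounts, by plasma cells. A naive B cell transcribes *Ighm* and *Ighd* together from 1 rearranged gene. In class switch recombination the DNA is cut and rejoined so that the same variable region is placed before a downstream constant gene. Cytokines direct the choice: IL-4, through STAT6, favours IgG1 and IgE, interferon-γ favours IgG2c, and TGF-β favours IgA and IgG2b. C57BL/6 mice carry *Ighg2c* at the position where other strains carry *Ighg2a*.

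On GRCm38 the heavy chain constant genes lie on the minus strand of chromosome 12, in the order in which switching can reach them. *Ighm* is at chr12:113418558-113422730, followed by *Ighd* at chr12:113406604-113416324, *Ighg3* at chr12:113356224-113361232, *Ighg1* at chr12:113325240-113330523, *Ighg2b* at chr12:113302965-113307933, *Ighg2c* at chr12:113285325-113288932, *Ighe* at chr12:113269260-113273248 and *Igha* at chr12:113254830-113260236. *Igkc* is on the plus strand at chr6:70726435-70726966 and *Jchain* on the minus strand at chr5:88519809-88527891. No exon of the 10 genes overlaps an exon of another gene in the annotation used.

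The 4 γ genes are close relatives, and whether reads of 75 bases tell them apart decides what their counts mean. Their hinge exons, exon 2 of each gene, are shown because they are the part in which the subclasses differ most visibly. They are printed 5′ to 3′ in the sense of the transcript, and capitals mark a run of at least 10 bases that occurs in another of the 4 hinge exons.
Ighg3 (chr12:113360529-113360576): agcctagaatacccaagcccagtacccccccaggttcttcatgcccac
Ighg1 (chr12:113329844-113329882): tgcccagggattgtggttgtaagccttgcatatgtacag
Ighg2b (chr12:113307261-113307326): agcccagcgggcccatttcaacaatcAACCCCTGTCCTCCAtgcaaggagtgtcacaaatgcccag
Ighg2c (chr12:113288263-113288325): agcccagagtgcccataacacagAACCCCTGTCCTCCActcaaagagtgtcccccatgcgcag
The hinge of *Ighg1* is the shortest, at 39 bases, against 48 in *Ighg3*, 63 in *Ighg2c* and 66 in *Ighg2b*. One run of 15 bases is common to *Ighg2b* and *Ighg2c*, and none of this length was found in *Ighg1* or *Ighg3*. Over the whole transcripts, 0.574% of the 75-base windows of *Ighg3*, 0.768% of those of *Ighg2b* and 0.480% of those of *Ighg2c* also occur in another transcript. For the other 7 genes this number was 0, so reads that map to 1 place can be assigned to a subclass nearly everywhere. The counts do not separate membrane from secreted forms, nor transcripts of a rearranged gene from the germline transcripts that precede switching.

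Between 26807281 and 29033297 reads fell on genes in a library, and levels are given as CPM (reads of a gene scaled to a library of fixed size) after TMM normalization, at which 1 read was 0.0338 to 0.0378 CPM. *Il4ra* was lower in the knockout libraries, with 3903, 3550 and 4686 reads in IL-4Rα+/+ and 781, 2268 and 940 in IL-4Rα-/- replicates 1, 2 and 3, which goes with the labels. The reads left in the knockout libraries are counts over the whole gene and do not show which exons they cover. The 12 monocyte marker genes summed to 22656 to 25645 CPM in IL-4Rα+/+ and 22979 to 25677 CPM in IL-4Rα-/- libraries, a sum to which *Lyz2* gave the most. Of these 12 genes, 3 had a positive and 9 a negative log2 fold change, with a median of -0.31, and 0 passed an unadjusted p under 0.05. Some libraries stood apart from the others. IL-4Rα+/+ replicate 2 and IL-4Rα-/- replicate 3 were rich in B cell transcripts. They also had the highest sums of the 9 T and NK cell genes, 113 and 101 CPM against 41.0 to 90.0 CPM elsewhere. Leaving them out thus did not remove B cell transcripts alone. IL-4Rα-/- replicate 2 held 318 CPM of pancreatic enzyme transcripts against at most 35.4 CPM elsewhere. *Xist*, the RNA of the inactive X chromosome, was high in IL-4Rα+/+ replicate 1 and IL-4Rα-/- replicate 3 alone.

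*Igha*, the constant gene of IgA, was the 1 gene of the 10 whose levels did not overlap between the genotypes. The groups did not overlap for 15.5% of all genes tested, so nothing is read from this count. It had 6970, 6404 and 7108 reads in the IL-4Rα+/+ libraries and 19449, 16236 and 12972 in the IL-4Rα-/- libraries. The corresponding levels were 245, 232 and 268 CPM and 694, 569 and 439 CPM. The lowest IL-4Rα-/- library thus lay above the highest IL-4Rα+/+ library, and the groups did not overlap. The mean was 248 ± 18.6 CPM (SD, n = 3) in IL-4Rα+/+ and 567 ± 128 CPM (SD, n = 3) in IL-4Rα-/- libraries, a log2 fold change of 1.19 with a standard error of 0.17, or 2.28-fold. The value was 1.29 without the 2 libraries rich in B cell transcripts and 1.33 without the 2 with high *Xist*. In bulk RNA, more cells of a type and more RNA per cell cannot be told apart.

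*Ighm*, the constant gene of IgM and the first to be used in any B cell, did not show this. It was read 12956, 19769 and 13901 times in IL-4Rα+/+ and 15564, 14687 and 14078 times in IL-4Rα-/- libraries. The highest value belonged to IL-4Rα+/+ replicate 2, and all 3 IL-4Rα-/- libraries lay within the IL-4Rα+/+ range. The means were 565 ± 135 and 515 ± 39.8 CPM (SD, n = 3 each), and the log2 fold change was -0.13 with a standard error of 0.17. It was 0.07 without IL-4Rα+/+ replicate 2 and 0.12 without both libraries rich in B cell transcripts, so its sign rested on that 1 replicate.

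*Ighd*, which marks naive B cells because it is lost on switching, was low in 4 libraries and high in the other two. Its levels were 2.42, 12.7 and 1.70 CPM in IL-4Rα+/+ and 2.14, 1.05 and 24.8 CPM in IL-4Rα-/- replicates 1, 2 and 3. The high libraries, 1 of each genotype, were those rich in B cell transcripts. The log2 fold change of 0.73 had a standard error of 1.27, and the difference was far within the spread of either group. *Ighd* amounted to between 0.204% and 1.78% of the *Ighm* count in 5 libraries and to 5.21% in IL-4Rα-/- replicate 3.

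**Figure D1:**
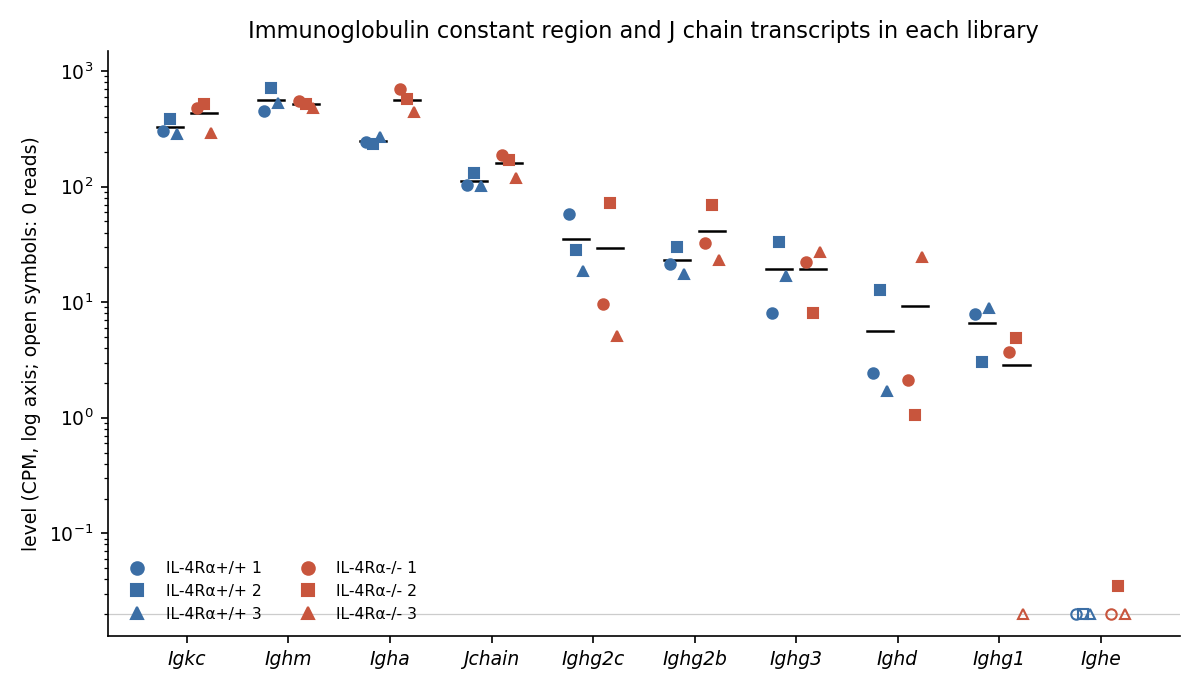
Level of each of the 10 genes in each library, in CPM on a log axis, with blue symbols for IL-4Rα+/+ and red for IL-4Rα-/-, one symbol shape per replicate number, a line at the mean and open symbols at the bottom for 0 reads. *Igha* is the one gene whose 3 IL-4Rα-/- libraries (439 to 694 CPM) all lie above the IL-4Rα+/+ libraries (232 to 268 CPM), while *Ighd* and *Ighg2c* spread widely within both genotypes.

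IgG1 and IgE are the isotypes to which IL-4 directs switching. *Ighg1*, the constant gene of IgG1, was read 227, 84 and 237 times in IL-4Rα+/+ and 103, 139 and 0 times in IL-4Rα-/- libraries. IL-4Rα+/+ replicates 1 and 3 were above every IL-4Rα-/- library, but IL-4Rα+/+ replicate 2 was below IL-4Rα-/- replicates 1 and 2, so the groups overlapped. The means were 6.65 ± 3.17 and 2.85 ± 2.54 CPM (SD, n = 3 each). The log2 fold change was -1.22 with a standard error of 1.15, nearly as large as the value. It was -1.86 without IL-4Rα-/- replicate 2 and -0.64 without IL-4Rα-/- replicate 3, the library with no read, in which *Ighg1* made up 0 of 29419 heavy chain constant reads. The exact binomial 95% interval of that share reached up to 0.0125%, whereas IL-4Rα-/- replicates 1 and 2 had 0.279% and 0.393%.

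*Ighe*, the constant gene of IgE, was hardly seen: a single read in IL-4Rα-/- replicate 2 and 0 in the other 5 libraries. All 6 values were under a limit of 3 reads, which is 0.101 to 0.113 CPM at this depth. A difference in *Ighe* was not detectable here, and the gene was the 1 of the 10 that did not pass the filter on low counts. *Fcer2a*, the low-affinity IgE receptor CD23, which IL-4 induces on B cells, was high only in the 2 libraries rich in B cell transcripts, with 184 and 342 reads against 15 to 25 in the others.

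The remaining γ genes differed from one another. *Ighg2b*, whose switching TGF-β favours, was 21.5, 30.03 and 17.4 CPM in IL-4Rα+/+ and 32.2, 69.9 and 22.96 CPM in IL-4Rα-/- libraries. In 2 of the 3 IL-4Rα-/- libraries the level was above the IL-4Rα+/+ range, and the log2 fold change was 0.86 with a standard error of 0.42. It was 0.26 without IL-4Rα-/- replicate 2, the library with the pancreatic transcripts. *Ighg2c*, the interferon-γ dependent subclass, ranged from 18.6 to 58.5 CPM in IL-4Rα+/+ and from 5.11 to 72.9 CPM in IL-4Rα-/- libraries. IL-4Rα-/- replicate 2 held the highest value and the other two IL-4Rα-/- libraries the lowest values of all 6, so the log2 fold change of -0.27 had a standard error of 0.97 and changed to -2.25 without that library. *Ighg3*, a subclass tied to responses to polysaccharides, was 19.3 ± 12.6 CPM in IL-4Rα+/+ and 19.2 ± 10.01 CPM in IL-4Rα-/- libraries (SD, n = 3 each), a log2 fold change of -0.01 with a standard error of 0.60.

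Within the γ genes, the mix differed between libraries. *Ighg2b* made up 22.4%, 31.8% and 28.2% of the summed γ reads in IL-4Rα+/+ and 47.5%, 44.9% and 41.5% in IL-4Rα-/- libraries. These groups did not overlap, but a share of a fixed total also moves with the other γ genes. As a share of all heavy chain constant reads, *Ighg2b* overlapped between the genotypes. The γ genes together were 12.02%, 8.97% and 7.21% of the heavy chain constant reads in IL-4Rα+/+ and 5.15%, 12.6% and 5.56% in IL-4Rα-/- libraries, which did overlap.

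Light chains are used with every isotype, whereas the J chain joins IgM and IgA. *Igkc* was 302, 386 and 288 CPM in IL-4Rα+/+ and 480, 523 and 291 CPM in IL-4Rα-/- libraries. IL-4Rα-/- replicates 1 and 2 were above the IL-4Rα+/+ libraries and replicate 3 was among them, and the log2 fold change was 0.41 with a standard error of 0.23. It was 0.25 without IL-4Rα-/- replicate 2, 0.63 without IL-4Rα-/- replicate 3 and 0.76 without the 2 libraries rich in B cell transcripts. *Jchain* was 103, 132 and 101 CPM in IL-4Rα+/+ and 188, 171 and 120 CPM in IL-4Rα-/- libraries, with IL-4Rα-/- replicate 3 again within the IL-4Rα+/+ range. Its log2 fold change was 0.51 with a standard error of 0.19, and 0.80 without the 2 libraries rich in B cell transcripts. The λ light chain constant genes summed to 15.5, 46.7 and 40.4 CPM in IL-4Rα+/+ and 55.7, 50.02 and 76.0 CPM in IL-4Rα-/- libraries, without overlap. Heavy chain variable segments gave 108, 168 and 137 CPM in IL-4Rα+/+ and 225, 213 and 143 CPM in IL-4Rα-/- libraries, which overlapped. All immunoglobulin genes together took 0.138% to 0.189% of the reads in IL-4Rα+/+ and 0.176% to 0.242% in IL-4Rα-/- libraries.

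Ratios within a library do not move when all immunoglobulin transcripts move together. They can still move with the mix of B cells and plasma cells, which was not tested. There were 0.538, 0.324 and 0.511 *Igha* reads per *Ighm* read in IL-4Rα+/+ and 1.25, 1.11 and 0.921 in IL-4Rα-/- libraries. In each genotype the library rich in B cell transcripts had the lowest *Igha* per *Ighm*. *Igha* per *Jchain* read was 2.37, 1.76 and 2.64 against 3.69, 3.33 and 3.66, and *Igha* per *Igkc* read was 0.812, 0.601 and 0.933 against 1.45, 1.09 and 1.51. In each of these the lowest IL-4Rα-/- library was above the highest IL-4Rα+/+ library, IL-4Rα-/- replicate 3 included, whose *Igkc* and *Jchain* levels were those of an IL-4Rα+/+ library. *Igkc* per *Jchain* read was 2.92, 2.92 and 2.84 in IL-4Rα+/+ and 2.55, 3.06 and 2.43 in IL-4Rα-/- libraries. *Igkc* and *Jchain* thus kept a similar proportion in all 6 libraries.

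**Figure D2:**
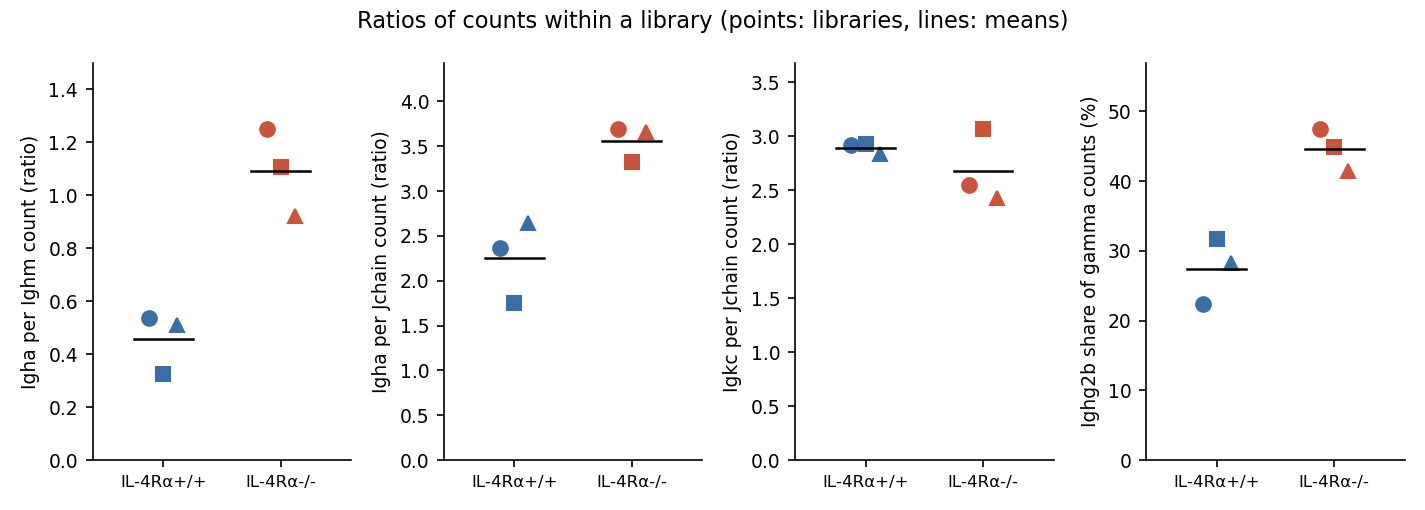
Ratios of read counts within each library, with IL-4Rα+/+ in blue, IL-4Rα-/- in red, a point per library and a line at the mean: *Igha* per *Ighm*, *Igha* per *Jchain*, *Igkc* per *Jchain*, and the percent of γ reads that were *Ighg2b*. The genotypes separate in the first, the second and the last panel and overlap for *Igkc* per *Jchain* (2.84 to 2.92 and 2.43 to 3.06).

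Expressed as isotype composition, *Igha* was second to *Ighm* by reads in every IL-4Rα+/+ library and ahead of it in 2 of the 3 IL-4Rα-/- libraries. It made up 30.7%, 22.0% and 31.3% of the heavy chain constant reads in IL-4Rα+/+ and 52.6%, 45.9% and 44.1% in IL-4Rα-/- libraries. The lowest *Igha* share of each genotype was in the library rich in B cell transcripts. The means were 28.0% ± 5.22 and 47.5% ± 4.49 (SD, n = 3 each), 19.5 percentage points apart. *Ighm* took 57.0%, 67.8% and 61.3% in IL-4Rα+/+ and 42.1%, 41.5% and 47.9% in IL-4Rα-/- libraries. Both sets of shares were without overlap, but shares add to a fixed total, and the *Ighm* level itself overlapped between the genotypes. With counts divided by exon length, the *Igha* share was 21.5% ± 4.21 in IL-4Rα+/+ and 39.3% ± 4.46 in IL-4Rα-/- libraries (SD, n = 3 each).

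When *Ighm* and *Ighd* were set aside and only the 6 switched isotypes were counted, *Igha* made up 71.8%, 71.0% and 81.3% in IL-4Rα+/+ and 91.1%, 78.5% and 88.8% in IL-4Rα-/- libraries. These groups overlapped, since IL-4Rα-/- replicate 2, with its 2081 *Ighg2c* and 1996 *Ighg2b* reads, lay below IL-4Rα+/+ replicate 3. IgA was thus the leading switched isotype in every library of either genotype.

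**Figure D3:**
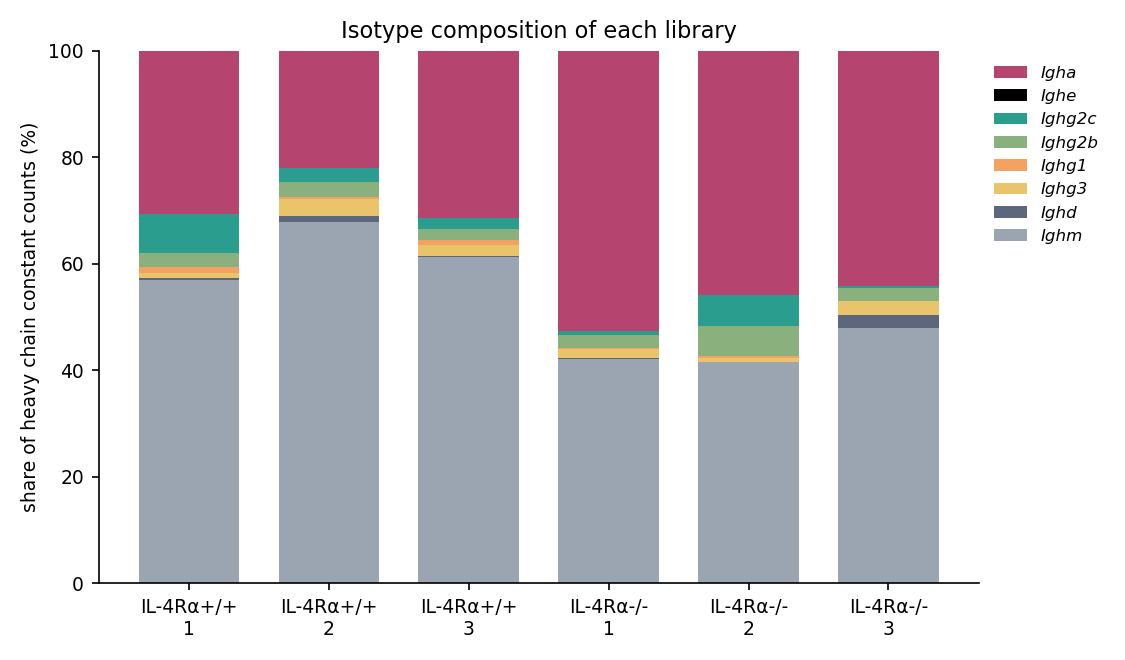
Share of each heavy chain constant gene in the heavy chain constant reads, in percent, one stacked bar per library. *Igha* fills 22.0% to 31.3% of the bar in IL-4Rα+/+ and 44.1% to 52.6% in IL-4Rα-/- libraries, *Ighm* most of the rest, and *Ighg1* never more than 1.04%.

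Genes were compared with each other as CPM per kilobase, where the length is that of all annotated exons of a gene merged. This length was 1.326 kilobases for *Ighg2c* and 2.678 kilobases for *Ighg2b*, so their order depends partly on the annotation. In IL-4Rα+/+ libraries the level of *Igkc* came first, at 611 ± 99.8, then *Ighm* at 300 ± 71.4, *Igha* at 93.1 ± 6.96, *Jchain* at 44.6 ± 6.79 and *Ighg2c* at 26.5 ± 15.7 CPM per kilobase (SD, n = 3). The ranges of *Jchain* and *Ighg2c* overlapped, whereas those of the first 4 genes did not overlap with one another. *Ighg2b*, *Ighg3*, *Ighd* and *Ighg1* followed between 8.58 and 2.57 CPM per kilobase, each overlapping the next. In IL-4Rα-/- libraries *Igkc* was again first, at 811 ± 233, but *Ighm* at 273 ± 21.1 and *Igha* at 213 ± 47.9 CPM per kilobase (SD, n = 3) were no longer separated by their ranges. From *Jchain*, at 63.4 ± 14.1 CPM per kilobase, down to *Ighg1*, at 1.10 ± 0.979, every gene overlapped the next one in the order.

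Read against all genes, the 10 genes stood as follows. Of the 13849 genes that passed the filter on low counts, edgeR's quasi-likelihood test called 0 (0%) at an adjusted p under 0.15, and so none of the 9 immunoglobulin genes that were tested. At an unadjusted p under 0.05 it called 8.09% of all genes and 2 of the 9, *Igha* and *Jchain*. DESeq2 called 0.571% of the genes it tested at an adjusted p under 0.15, *Igha* among them. The groups did not overlap for 15.5% of all genes, and for 7.63% they did so with the higher values in IL-4Rα-/- libraries, as for 1 of the 9 genes, *Igha*. Because the set was chosen on this comparison, nothing is read from these counts. The median log2 fold change was 0.41 over the 9 genes, 5 positive and 4 negative, and 0.01 over all genes tested.

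**Figure D4:**
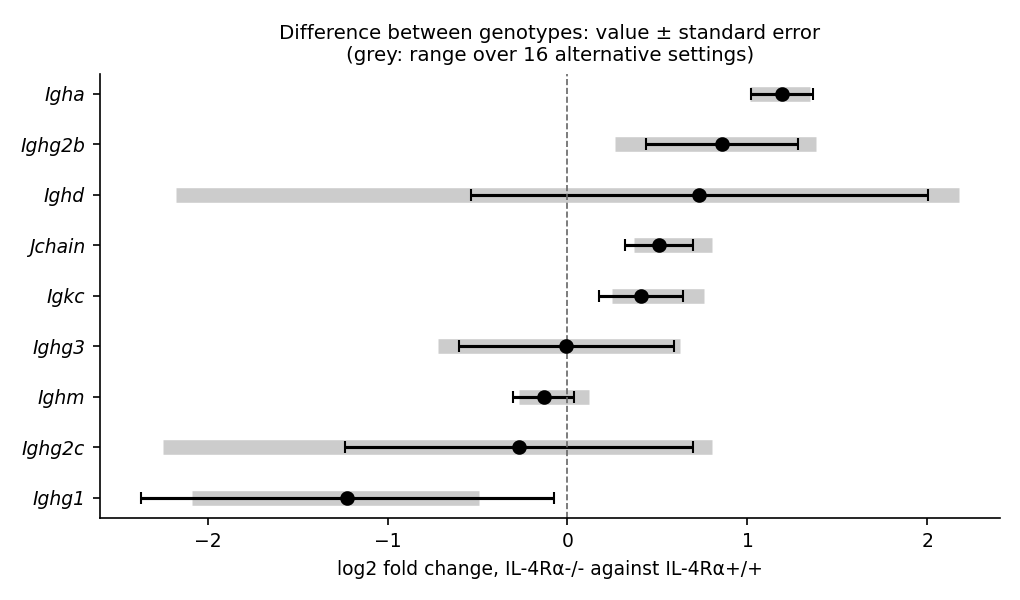
Log2 fold change of IL-4Rα-/- against IL-4Rα+/+ libraries for the 9 genes that passed the filter, as points with standard errors, with grey bars for the range over 16 other ways of processing or leaving out libraries. *Igha*, at 1.19, stays between 1.02 and 1.35, while the bars of *Ighd*, *Ighg2c*, *Ighg3* and *Ighm* cross 0.

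The antibody-making cells themselves were looked for through their marker genes. Among B cell genes, *Ms4a1*, encoding CD20, had 47, 250 and 47 reads in IL-4Rα+/+ and 43, 29 and 629 in IL-4Rα-/- libraries. *Cd79a*, a chain of the B cell receptor complex, was high in the same pair of libraries, with 245 and 568 reads against at most 48 elsewhere. *Ighd* followed this division. *Igha* did not, and the IL-4Rα-/- library with the most *Ms4a1* had the least *Igha* of its genotype. Of the 19 B cell genes, 0 passed an unadjusted p under 0.05 and 0 had groups that did not overlap, with a median log2 fold change of 0.66. The summed level of the 19 B cell genes was 233 to 406 CPM in IL-4Rα+/+ and 218 to 511 CPM in IL-4Rα-/- libraries. *Cd37* gave the most to it, with means of 151 CPM in IL-4Rα+/+ and 135 CPM in IL-4Rα-/- libraries.

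**Figure D5:**
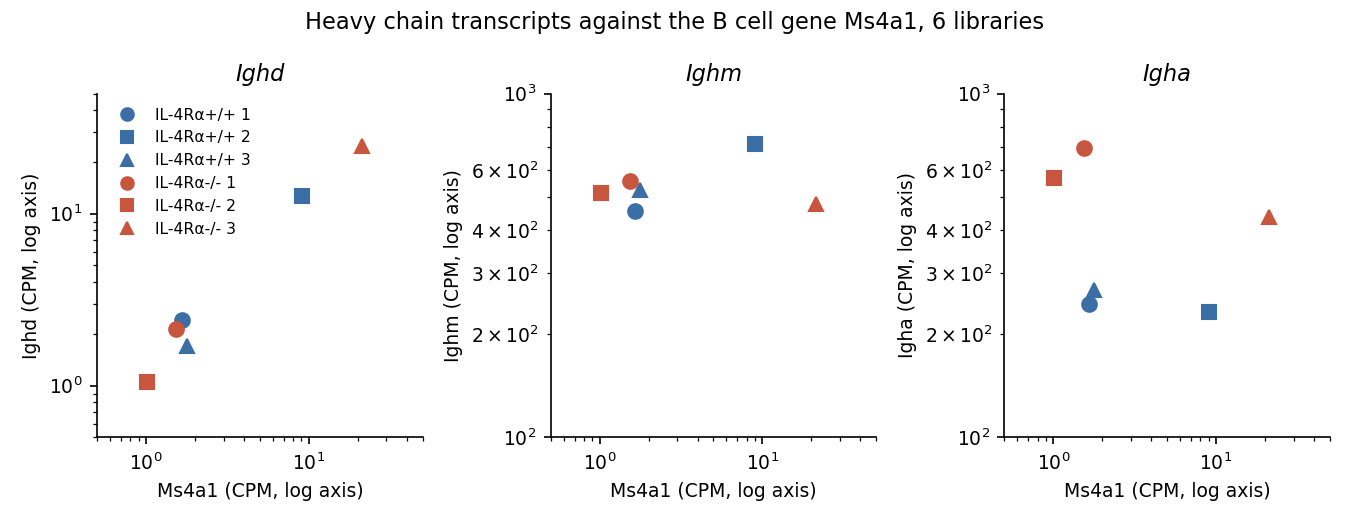
Levels of *Ighd*, *Ighm* and *Igha* against *Ms4a1* in the 6 libraries, in CPM on log axes, with IL-4Rα+/+ in blue and IL-4Rα-/- in red. The 2 libraries with the most *Ms4a1*, 1 of each genotype, have the most *Ighd* (12.7 and 24.8 CPM). Their *Igha* levels, 232 and 439 CPM, are the lowest of each genotype. *Igha* is in the set because it differed between the genotypes, so nothing is read from its separation here.

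Plasma cell genes overlapped between the genotypes, with 1 exception. *Mzb1*, a chaperone needed for antibody secretion, had 3, 9 and 13 reads in IL-4Rα+/+ and 11, 7 and 12 in IL-4Rα-/- libraries, and *Tnfrsf17*, encoding the survival receptor BCMA, had 4 to 7 and 7 to 17 reads. *Sdc1*, encoding the plasma cell surface protein CD138, was 3.56 ± 1.05 CPM in IL-4Rα+/+ and 2.84 ± 0.811 CPM in IL-4Rα-/- libraries (SD, n = 3 each). The transcription factor genes *Xbp1*, *Prdm1* and *Irf4* had log2 fold changes of 0.15, -0.08 and -0.18, each smaller than its standard error. Of the 16 plasma cell genes tested, 0 passed an unadjusted p under 0.05, where 8.09% of all genes did. The groups did not overlap for 1, where they did not for 15.5% of all genes. It was *Derl3*, a gene of protein disposal in the endoplasmic reticulum, at 29 to 39 against 46 to 75 reads. The 17 listed genes summed to 1243 to 1553 CPM in IL-4Rα+/+ and 1212 to 1638 CPM in IL-4Rα-/- libraries. The median log2 fold change was 0.03. None of the 17 genes was at 0 in any library, and the lowest count was 3. *Xbp1* and *Edem1* gave the most to the sum, with IL-4Rα+/+ means of 374 and 371 CPM. *Mzb1* and *Tnfrsf17* had means of 0.307 and 0.218 CPM there. The sum and the median are therefore no measure of the number of plasma cells. What part the number of plasma cells had in the *Igha* difference was not tested.

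Erythroid and basophil transcripts were the lists of other cells with genes at an unadjusted p under 0.05. All 8 erythroid genes and all 7 basophil and mast cell genes had positive log2 fold changes, with medians of 1.42 and 1.44, and 7 of each list passed that limit, where 8.09% of all genes did. The erythroid genes summed to 57.1, 128 and 101 CPM in IL-4Rα+/+ and 167, 175 and 418 CPM in IL-4Rα-/- libraries. The basophil genes summed to 8.83 to 24.2 and 31.8 to 65.2 CPM. At an adjusted p under 0.15, DESeq2 called 3 and 2 of them, where it called 0.571% of the genes it tested. edgeR called 0 of them, where it called 0% of all genes. Their part in the *Igha* difference was not tested.

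The genes of the class switching machinery had 17 positive and 19 negative log2 fold changes. Of the 36 switching genes tested, 4 passed an unadjusted p under 0.05, where 8.09% of all genes did. *Xrcc5*, which encodes the Ku80 end-joining protein, and *Exo1*, an exonuclease gene, were higher in IL-4Rα-/- libraries, with log2 fold changes of 0.88 (SE 0.30) and 0.90 (SE 0.33). *Prkdc* and *Atm*, which encode kinases that respond to DNA breaks, were lower, with -0.28 (SE 0.10) and -0.40 (SE 0.15). The groups did not overlap for 5 genes in each direction, where they did not for 15.5% of all genes. The median log2 fold change was -0.03. At an adjusted p under 0.15, edgeR and DESeq2 each called 0 of the list, where they called 0% and 0.571% of all genes they tested. Most of these genes serve DNA repair in many cell types, so the counts are not those of switching B cells alone.

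Genes of the signals that direct switching were expressed in these libraries too. In the list for IL-4 and switching to IgG1 and IgE, 14 of 18 genes were tested. At an unadjusted p under 0.05, 2 passed, where 8.09% of all genes did, and both were lower in IL-4Rα-/- libraries. One is *Il4ra*, the deleted gene, at 147 ± 25.8 against 46.4 ± 28.7 CPM (SD, n = 3 each). The other is *Il21r*, the interleukin-21 receptor gene, with a log2 fold change of -0.82 (SE 0.26). *Stat6*, which carries the IL-4 signal, was 488 ± 22.3 and 457 ± 10.3 CPM (SD, n = 3 each), with a log2 fold change of -0.09 (SE 0.07). The median log2 fold change of the list was -0.07.

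Of the genes for switching to IgA and the survival of IgA cells, 16 of 20 were tested. Where 8.09% of all genes passed an unadjusted p under 0.05, 1 of these 16 did. This was *Smad3*, which carries the TGF-β signal, at 72.6 ± 18.3 CPM in IL-4Rα+/+ and 50.9 ± 1.39 CPM in IL-4Rα-/- libraries (SD, n = 3 each), a log2 fold change of -0.51 (SE 0.17). The list had a median of -0.10, with 4 positive and 12 negative values. Of the 7 tested genes for switching to IgG2, 1 passed, *Irf1*, an interferon-induced transcription factor gene, with a log2 fold change of -0.18 (SE 0.07), and the median was -0.13. DESeq2 called *Il4ra* and no other gene of these 3 lists at an adjusted p under 0.15, where it called 0.571% of the genes it tested.

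Receptors that bind immunoglobulin were counted last. Of 11 tested genes, 2 passed an unadjusted p under 0.05, where 8.09% of all genes did. They were *Ms4a2* and *Fcer1a*, which encode chains of the high-affinity IgE receptor. *Ms4a2* had 37, 26 and 27 reads in IL-4Rα+/+ and 106, 46 and 117 in IL-4Rα-/- libraries, a log2 fold change of 1.52 (SE 0.39). *Fcer1a* had 20, 8 and 22 reads against 61, 27 and 54, with a log2 fold change of 1.44 (SE 0.49). Both belong to the basophil list as well. Among the light chain genes, 4 of 9 were tested, and *Iglc1*, a λ constant gene, passed at an unadjusted p under 0.05 with 16.6 ± 6.58 CPM in IL-4Rα+/+ and 30.1 ± 4.28 CPM in IL-4Rα-/- libraries (SD, n = 3 each), a log2 fold change of 0.86 (SE 0.29).

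The genes whose levels ran most like those of a heavy chain gene were ranked by Pearson's correlation of log2 CPM over the 6 libraries, among 12007 genes outside the immunoglobulins. For *Igha* they were *Rps7* (r = 0.995), *Syn1* (r = 0.995) and *Tbca* (r = 0.992). For *Ighm* they were *Gvin1* (r = 0.974), *Ahrr* (r = 0.973) and *Cbr4* (r = 0.957), and for *Ighg1* they were *Cep95* (r = 0.989), *Zbtb40* (r = 0.987) and *Zscan30* (r = 0.977). These are the highest of many correlations over 6 points that share genotype and library, and they are a description only. None of the 9 genes is a marker in the B cell or plasma cell lists.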

How the data were processed

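RNA from splenic monocytes, enriched with a negative selection kit, was made into directional poly(A) libraries and sequenced as single reads of 75 bases. The authors aligned the reads to GRCm38 with STAR 2.6.1a and deposited raw counts of reads per GENCODE gene, without normalization. The submitters' processing notes also name bcl2fastq 2.19.1.403, RSEM and DESeq2 1.22.2. Which strand setting the counts use is not given in the sources used here. Lines for reads outside genes (8.87% to 11.7% of the reads), ambiguous reads (1.39% to 1.52%) and multimapping reads (8.30% to 9.35%) were left out of library sizes and tests.

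Genes were named from GENCODE mouse release 21, which held 55240 of the 55421 identifiers. Genes were kept by filterByExpr with a minimum count of 10 and tested in R 4.3.3 with edgeR 4.0.16 (TMM, quasi-likelihood, Benjamini-Hochberg, threshold 0.15 as in the study). DESeq2 1.42.0 was an alternative. Standard errors were derived from the edgeR test, as the absolute log2 fold change divided by the square root of its F statistic. Levels are CPM. Shares of reads use the counts, and intervals and limits at 3 counts cover counting error only. The steps were tested on simulated data for this comparison: of 200 genes planted with a 4-fold change among 13849, 89.5% were found by edgeR, with 36 false calls, and 91% by DESeq2, with 93 false calls.

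Libraries were grouped by labelled genotype. The labels give replicate numbers and no cultures or litters, so that spread is between libraries. Same-numbered libraries had correlations of 0.185, -0.271 and -0.296 in their deviations from the group means, and the numbers were not used as pairs. The genes described and the lists were chosen with earlier results of these data known. Named beside the 10 genes are *Il4ra*, up to 4 genes a list by the smallest p, 12 defining genes set by hand (2 of them are not reported here), and 3 genes most like *Igha*, *Ighg1* and *Ighm* each. *Derl3* was named after its values were seen. So were *Lyz2*, *Cd37* and *Edem1*, as genes that gave the most to a sum, and *Xist*, for the libraries in which it was high. Alternatives changed the normalization, test, filter, threshold, covariates and share scale, and left out libraries. Removing the 2 libraries rich in B cell transcripts and the 2 with high *Xist* was chosen after seeing the data. Flow cytometry and protein experiments were not analysed here.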

Additional observations from a re-analysis of the deposited data

How the results depend on the processing

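The log2 fold change of *Igha* was positive under all 16 alternatives, from 1.02 to 1.35, and those of *Ighg2b*, *Igkc*, *Jchain* (positive) and *Ighg1* (negative) also kept their sign. The sign changed under 5 of 16 alternatives for each of *Ighd*, *Ighg2c* and *Ighg3* and under 2 for *Ighm*. With one library left out at a time, the values ranged from -1.81 to 2.17 for *Ighd*, from -2.25 to 0.31 for *Ighg2c* and from 0.37 to 0.68 for *Jchain*. Without the 2 libraries rich in B cell transcripts, *Ighm* was 0.12 and *Jchain* 0.80, and without the 2 with high *Xist*, *Ighd* was -2.18. Counting switched isotypes only changed the difference in share, in percentage points, to 11.4 for *Igha*, -1.61 for *Ighg1*, -0.755 for *Ighg2b*, -6.39 for *Ighg2c* and -2.67 for *Ighg3*. DESeq2 called 80 genes in all and 6 list genes where edgeR called 0, and edgeR called 0 of either under every other alternative. With the replicate number as a replicate block, edgeR called 0 genes and the *Igha* value was 1.17. The standard errors of *Ighd*, *Ighg2c* and *Ighg3* were larger than their differences and that of *Ighg1* nearly as large, and *Ighe* could not be compared at this depth.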
